A study of Homo sapiens with 18 samples.

Results

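The 6 genes described here, FTH1, FTL, TFRC, SLC11A2, ACO1 and IREB2, form the best-known circuit of iron-responsive elements (IREs) in human cells. They were chosen by gene name from the 60675 human gene rows of the count table, and all 6 passed the filter on low counts that kept 26804 genes for testing. The RNA was from HEK293T, a line derived from human embryonic kidney, as 3 lines that carried YTHDF1-ADAR, YTHDF2-ADAR or YTHDF3-ADAR, each a reader of methylated adenosine (m6A) joined to an enzyme that turns adenosines of bound mRNA into bases read as G. All groups were treated alike, with 1 µg/mL doxycycline for 24 h to switch the fusion on and 100 µg/mL cycloheximide for 10 min to hold ribosomes on mRNA. From each line, total RNA and the pooled polysome fractions of a sucrose gradient (mRNA with more than 2 ribosomes) were sequenced in 3 libraries each, which gave 6 groups and 18 libraries. Cells without doxycycline, or without a fusion, were not analysed here, so a fusion and the line that carries it cannot be told apart, and the labels do not say whether a line is 1 clone or whether replicates are separate cultures.

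Cells set their iron uptake and storage through a short RNA hairpin, the IRE, and the iron regulatory proteins that hold it when iron is scarce. In the 5′ UTR of the ferritin mRNAs FTH1 and FTL, a bound hairpin stops the ribosome from starting, so that mRNA is kept off polysomes. In the 3′ UTR of TFRC and of some SLC11A2 isoforms, a bound hairpin protects the mRNA from decay instead. ACO1 and IREB2 encode iron regulatory proteins 1 and 2, the proteins that bind the hairpin, so the name of IRE mRNAs does not strictly cover them.

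The hairpin of FTL is shown because ferritin carries the main result, beside that of ALAS2, the erythroid enzyme of heme synthesis, as a second 5′ element of the same kind. Capitals mark the unpaired C of the stem and the loop that the regulatory proteins read, found as CNNNNNCAGTGN on the coding strand.
FTL: cttgCttcaaCAGTGTttggac
ALAS2: cgttCgtcctCAGTGCagggca
Both come from RefSeq on GRCh38.p14, FTL at chr19:48965337-48965358 on the plus strand and ALAS2 at chrX:55030946-55030967 on the minus strand. These are bases 29 to 50 and 11 to 32 after the start of their RNAs, inside the 5′ UTR. The same letters stood in 1.67% of 35116 windows that cover the first 50 bases of RefSeq transcripts, and in 1.66% on the other strand, so a match alone is common. Of the 6 genes, 5 had an entry in that table, and TFRC, SLC11A2, ACO1 and IREB2 held no such letters in their windows. That says nothing of their 3′ ends.

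In GRCh38 coordinates of the count table, the storage genes are FTH1 (ferritin heavy chain, which oxidises iron) at chr11:61959718-61967634 on the minus strand and FTL (ferritin light chain, which helps the mineral core form) at chr19:48965309-48966879 on the plus strand. The uptake genes are TFRC (transferrin receptor) at chr3:196027183-196082096 and SLC11A2 (the iron transporter DMT1) at chr12:50979401-51028566, both on the minus strand. ACO1 lies at chr9:32384603-32454769 and IREB2 at chr15:78437431-78501453, both on the plus strand. Counts cover all exons of a gene together, so the isoforms of SLC11A2 with and without a hairpin were not separated.

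Depth ran from 42699303 to 67549159 counts per library. Each of YTHDF1, YTHDF2 and YTHDF3 had its highest mean level in the line named after it, as did ADARB1 in the YTHDF3-ADAR line. For YTHDF3 in polysome RNA, libraries of the YTHDF3-ADAR line overlapped those of the YTHDF1-ADAR line. All 8 HEK293T markers were detected, though the marker lists were chosen with earlier results of these data known. The 4 liver and 3 endothelial markers were at or under 1 CPM (the usual count-per-library-size unit, after TMM scaling) in each library, as were 3 of 6 blood and 2 of 4 fibroblast markers. In total RNA the HEK293T markers summed to 1490 to 1776 CPM with YTHDF1-ADAR and 809 to 881 CPM with YTHDF2-ADAR. With YTHDF3-ADAR the sum was 549 to 1080 CPM. YTHDF3-ADAR replicates 2 and 3 stood apart from the other 7 same-numbered pairs in the polysome level of ribosomal protein mRNAs, as given below with the ferritin values.

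Both ferritin mRNAs were depleted from polysomes in all 3 lines, by 2.36- to 3.30-fold for FTH1 and by 2.68- to 4.00-fold for FTL. No other member fell. IREB2 rose in polysomes of the YTHDF3-ADAR line, by 1.59-fold, and TFRC, SLC11A2 and ACO1 did not pass the test in any line.

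FTH1 in total RNA of the YTHDF1-ADAR line stood at 347, 332 and 315 CPM (replicates 1, 2 and 3), and in polysome RNA at 144, 169 and 108 CPM. The YTHDF2-ADAR line gave 326, 279 and 289 CPM in total and 147, 109 and 117 CPM in polysome RNA. In the YTHDF3-ADAR line the values were 304, 366 and 353 CPM against 118, 98.7 and 94.0 CPM. All 9 polysome libraries lay below all 9 total RNA libraries, which held for 5.33% of the genes tested. The log2 change of polysome against total RNA was -1.24 ± 0.15 (SE) for YTHDF1-ADAR, -1.26 ± 0.15 for YTHDF2-ADAR and -1.72 ± 0.15 for YTHDF3-ADAR, with n = 3 libraries a group and Benjamini-Hochberg adjusted p of 5.49e-05, 5.57e-05 and 2.98e-06 in the edgeR quasi-likelihood fit. As folds these are 2.36 (95% interval 1.88 to 2.95), 2.40 (1.92 to 3.01) and 3.30 (2.63 to 4.13). A CPM is a share of the RNA sequenced, and in bulk RNA fewer cells that hold an mRNA and less of it per cell cannot be told apart.

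FTL gave 188, 183 and 156 CPM in total RNA of the YTHDF1-ADAR line and 71.0, 79.4 and 46.2 CPM in its polysomes. With YTHDF2-ADAR it was 159, 131 and 142 CPM in total RNA and 61.6, 46.0 and 46.2 CPM in polysomes. With YTHDF3-ADAR it was 160, 207 and 199 CPM in total RNA and 54.9, 45.3 and 41.4 CPM in polysomes. Again the 2 fractions did not overlap in any line or across lines, and total RNA always held the higher values. Polysome libraries all below total RNA were found for 22.3%, 21.5% and 15.2% of genes tested within the 3 lines, and for 5.33% across them. The log2 change was -1.42 ± 0.18, -1.49 ± 0.18 and -2.00 ± 0.19 in the YTHDF1-, YTHDF2- and YTHDF3-ADAR lines, with edgeR adjusted p of 7.37e-05, 6.41e-05 and 4.37e-06. That is a fold of 2.68 (95% interval 2.05 to 3.50), 2.81 (2.15 to 3.67) and 4.00 (3.05 to 5.25).

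**Figure D1:**
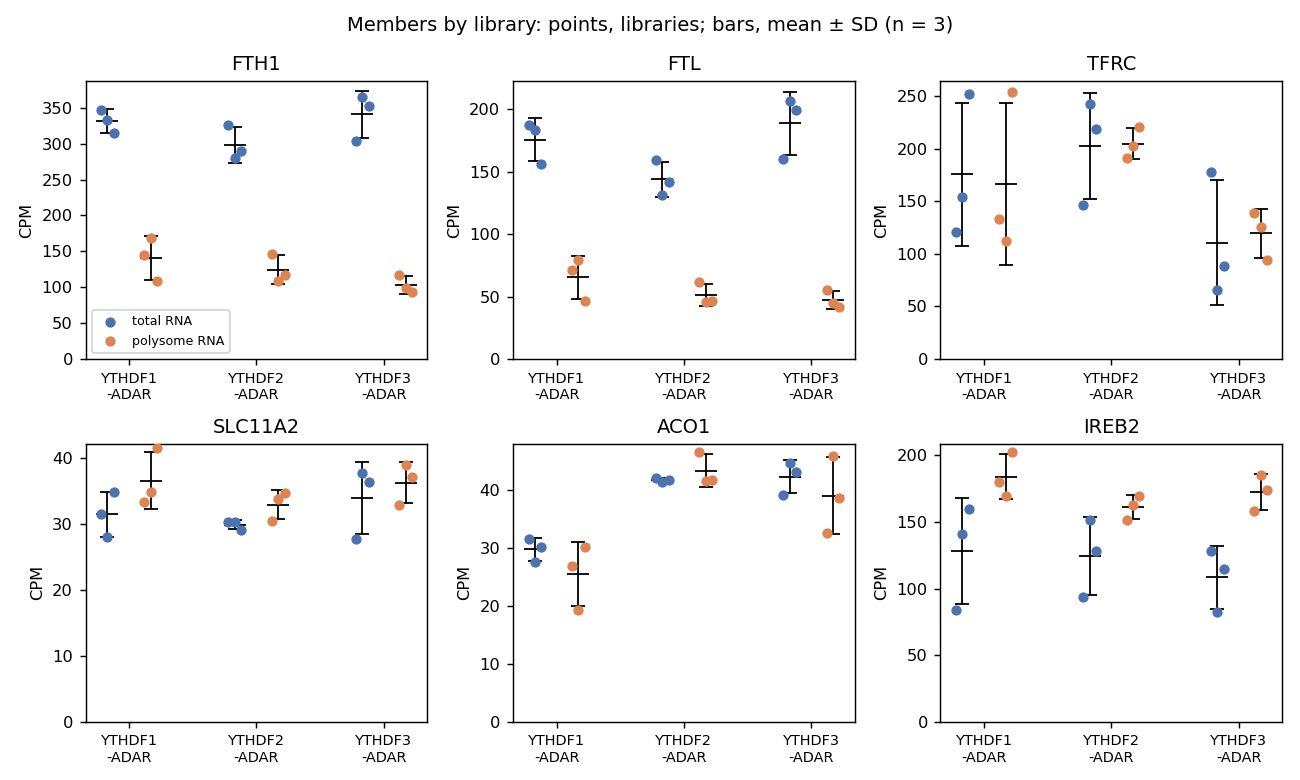
Level of each of the 6 genes in CPM (y axis) in the 3 lines (x axis), with 1 point per library and bars for mean ± SD (n = 3), total RNA in blue and polysome RNA in orange. FTH1 and FTL in polysome RNA lie below total RNA in every library, while the fractions of TFRC overlap in each line.

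Lower polysome levels were called for 2 of the 6 members in each line (FTH1 and FTL), against 11.9%, 9.04% and 12.1% of all genes tested in the YTHDF1-, YTHDF2- and YTHDF3-ADAR lines. A higher level was called for 0, 0 and 1 of them, against 9.27%, 6.71% and 8.01% of genes, with the same counts by DESeq2 and 1, 0 and 1 at an unadjusted edgeR p under 0.05. Being lower in all 3 lines, as FTH1 and FTL were, was the case for 6.56% of genes tested and 3.65% of 15675 protein-coding genes. Among 11799 expressed protein-coding genes (mean log2 CPM 2 or more), FTL had the 41st, 28th and 12th lowest change in the 3 lines and FTH1 the 69th, 48th and 20th. The median change of those genes was 0.18, 0.17 and 0.09. The median over the 6 members was -0.15, 0.03 and -0.01, beside 0.03, 0.03 and -0.05 over all genes tested.

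**Figure D2:**
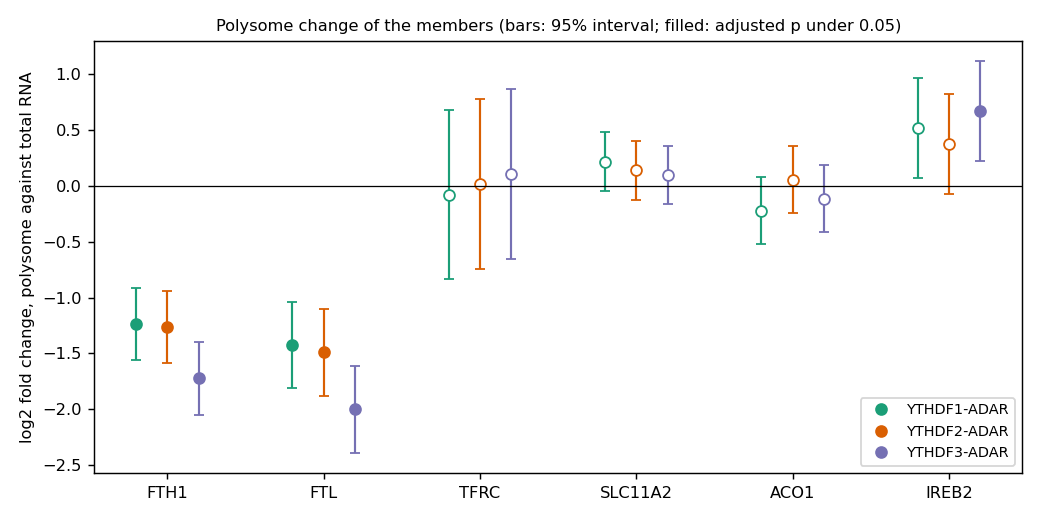
Log2 fold change of polysome against total RNA (y axis) of each gene (x axis) in the 3 lines, with 95% intervals from the edgeR fit and filled points where the adjusted p is under 0.05. FTH1 and FTL lie between -1.24 and -2.00, and IREB2 with YTHDF3-ADAR is the only filled point above 0.

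The ferritin values came close to each other within each pair of same-numbered libraries. For FTH1 the log2 ratio of polysome to total CPM was -1.27, -0.98 and -1.54 with YTHDF1-ADAR, -1.15, -1.36 and -1.31 with YTHDF2-ADAR, and -1.37, -1.89 and -1.91 with YTHDF3-ADAR. For FTL it was -1.40, -1.21 and -1.76, then -1.37, -1.51 and -1.62, and last -1.54, -2.19 and -2.27. FTL was the lower of both in all 9 pairs, and the 2 lowest pairs of each gene were YTHDF3-ADAR replicates 2 and 3. In those pairs the median over 86 ribosomal protein mRNAs was -1.25 and -0.70, whereas it lay between 0.01 and 0.27 in the other 7 pairs. YTHDF3-ADAR replicate 1 had a ribosomal protein median of 0.03, with -1.37 for FTH1 and -1.54 for FTL. The part of the ribosomal protein shift in the ferritin values was not tested.

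**Figure D3:**
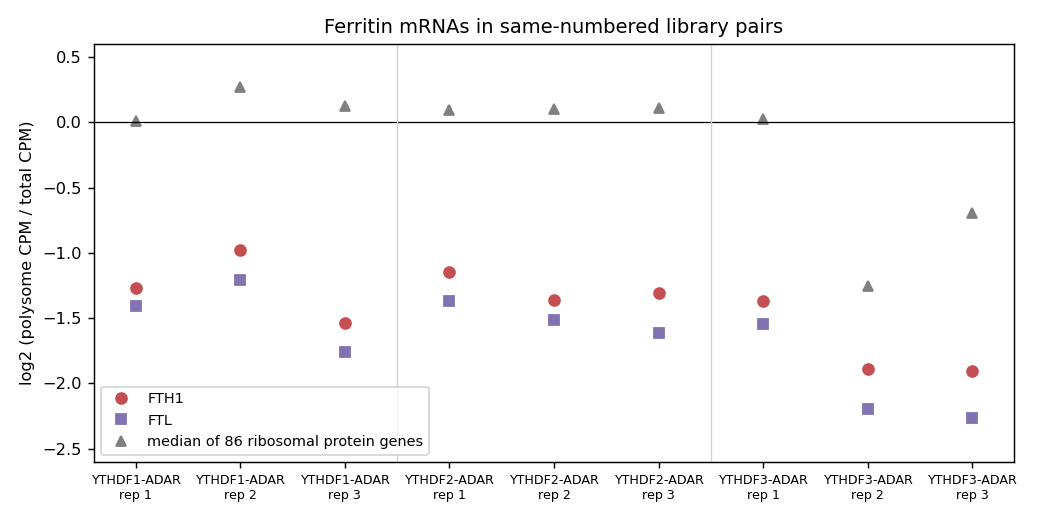
Log2 ratio of polysome to total CPM (y axis) in the 9 same-numbered library pairs (x axis) for FTH1 (circles), FTL (squares) and the median of 86 ribosomal protein genes (triangles). Both ferritin mRNAs are below -0.9 in every pair, and the ribosomal protein median leaves the range near 0 in YTHDF3-ADAR replicates 2 and 3.

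Whether the depletion differed between lines was tested as a difference of differences. The FTH1 change with YTHDF3-ADAR minus that with YTHDF1-ADAR was -0.48 ± 0.21 on the log2 scale (95% interval -0.93 to -0.03), and minus that with YTHDF2-ADAR it was -0.46 ± 0.21. For FTL the differences were -0.58 ± 0.25 and -0.51 ± 0.25. None of these passed adjustment over all genes, with edgeR adjusted p of 1.00 in each case. No gene passed in any of the 3 such contrasts by edgeR, while unadjusted p-values under 0.05 numbered 166, 878 and 801 (YTHDF2- minus YTHDF1-ADAR, YTHDF3- minus YTHDF1-ADAR and YTHDF3- minus YTHDF2-ADAR) and DESeq2 called 0, 1 and 0. A larger ferritin depletion in the YTHDF3-ADAR line was thus not established, nor were equal depletions.

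Part of the FTH1 count cannot be assigned with certainty. BEST1, a chloride channel gene of the retina on the opposite strand, shares 1267 bases, or 63.2%, of the FTH1 exon sequence in the count table. Its mean level was 186 CPM, it fell in polysomes by -1.06, -1.11 and -1.65 on the log2 scale in the 3 lines, and without the strand setting of the counting its reads and those of FTH1 cannot be told apart. With BEST1 counts added, the FTH1 change was -1.16, -1.20 and -1.69. As both genes fell, their sum had to fall too, so this is no check of FTH1 alone. Processed copies were few: 26 FTH1 pseudogenes together held 2.85% to 11.9% of the FTH1 level in a library and 16 FTL pseudogenes 0.528% to 3.27% of the FTL level. Adding them gave -1.21, -1.24 and -1.65 for FTH1 and -1.42, -1.49 and -1.98 for FTL. FTL shares no exon bases with another gene in the table.

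The uptake genes did not follow ferritin. TFRC, which brings iron-loaded transferrin into the cell, varied more between libraries of a group than between fractions. Its levels were 121, 154 and 252 CPM in total and 133, 112 and 254 CPM in polysome RNA with YTHDF1-ADAR, and 146, 242 and 219 CPM against 191, 203 and 220 CPM with YTHDF2-ADAR. With YTHDF3-ADAR they were 178, 65.4 and 88.6 CPM in total and 139, 125 and 94.2 CPM in polysome RNA. The fractions overlapped in each line. The log2 change was -0.08, 0.02 and 0.11, each ± 0.36, and the 95% intervals (-0.84 to 0.68, -0.74 to 0.78 and -0.65 to 0.87) left room for a shift of more than 1.5-fold either way, so TFRC cannot be called unchanged.

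SLC11A2, which moves iron across membranes, was steadier. Total RNA held 31.5, 28.1 and 34.8 CPM with YTHDF1-ADAR, 30.3, 30.3 and 29.1 CPM with YTHDF2-ADAR and 27.7, 37.8 and 36.4 CPM with YTHDF3-ADAR. Polysome RNA held 33.4, 34.9 and 41.5 CPM, 30.5, 33.8 and 34.7 CPM, and 32.9, 38.9 and 37.1 CPM in the same order. The 2 fractions parted only with YTHDF2-ADAR, where all polysome libraries were above total RNA, as for 25.4% of genes tested. Log2 changes were 0.22 ± 0.12, 0.14 ± 0.12 and 0.10 ± 0.12 (edgeR adjusted p = 0.234, 0.506 and 0.648). With the replicate number as a block, the YTHDF1-ADAR change of 0.22 had an edgeR adjusted p of 0.0494 and so passed.

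Of the mRNAs of the hairpin-binding proteins, IREB2 was called in 1 line and ACO1 in none, and a difference between them was not tested. IREB2, whose protein is degraded when iron is plentiful, was at 83.8, 141 and 160 CPM in total and 180, 169 and 203 CPM in polysome RNA with YTHDF1-ADAR. It was at 93.4, 152 and 128 CPM against 152, 163 and 170 CPM with YTHDF2-ADAR, and at 128, 82.2 and 115 CPM against 158, 186 and 174 CPM with YTHDF3-ADAR. Polysome libraries were above total RNA in each line, though with YTHDF2-ADAR the nearest libraries were at 151.7 and 151.5 CPM, and the same held for 26.4%, 25.4% and 10.6% of genes. The log2 change was 0.52 ± 0.21, 0.38 ± 0.21 and 0.67 ± 0.21, of which the last passed (edgeR adjusted p = 0.0906, 0.260 and 0.0349). The change exceeded that of 93.6%, 83.5% and 94.9% of the expressed protein-coding genes. The YTHDF3-ADAR call was lost in a fit of only the 2 groups (0.67, adjusted p = 0.166), in a fit of protein-coding genes alone (0.61, adjusted p = 0.0648), and without any 1 of 4 libraries: polysome replicate 2 (0.62) or 3 (0.67) and total RNA replicate 2 (0.51) or 3 (0.71).

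ACO1, which is a cytosolic aconitase when it holds an iron-sulfur cluster and a hairpin-binding protein when it does not, showed overlapping fractions in each line. Its levels were 31.5, 27.6 and 30.2 CPM in total and 27.0, 19.4 and 30.2 CPM in polysome RNA with YTHDF1-ADAR. They were 42.1, 41.5 and 41.8 CPM against 46.7, 41.6 and 41.8 CPM with YTHDF2-ADAR, and 39.1, 44.7 and 43.1 CPM against 32.5, 45.9 and 38.7 CPM with YTHDF3-ADAR. The log2 change of polysome against total RNA was -0.22 ± 0.14, 0.05 ± 0.14 and -0.11 ± 0.14 (edgeR adjusted p = 0.293, 0.853 and 0.637).

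Between lines, ACO1 was the member that differed most steadily. In polysome RNA it was higher with YTHDF2-ADAR than with YTHDF1-ADAR by 0.77 ± 0.14 on the log2 scale (1.70-fold, edgeR adjusted p = 0.00570), a direction called for 0.761% of genes, while 1.59% were lower. It was also higher there with YTHDF3-ADAR than with YTHDF1-ADAR, by 0.62 ± 0.14 (edgeR adjusted p = 0.00690, 11.9% of genes), though not in a fit of only these groups (0.64, adjusted p = 0.0711). In total RNA the YTHDF3-ADAR line exceeded the YTHDF1-ADAR line by 0.51 ± 0.14 (edgeR adjusted p = 0.0228), where 11.6% of genes were higher and 6.52% lower. That call was lost in a fit of only these groups (0.51, adjusted p = 0.0581) and without total RNA replicate 2 (0.45) or 3 (0.52) of YTHDF1-ADAR or replicate 2 (0.47) or 3 (0.49) of YTHDF3-ADAR. YTHDF2-ADAR exceeded YTHDF1-ADAR in total RNA by 0.49 ± 0.14, which edgeR did not call (adjusted p = 0.115) and DESeq2 did (adjusted p = 0.0346). In both fractions each library of the YTHDF2- and YTHDF3-ADAR lines was above each library of the YTHDF1-ADAR line, which for total RNA held in 8.54% and 16.0% and for polysome RNA in 12.8% and 15.0% of genes. These comparisons share the YTHDF1-ADAR libraries. Summed blood markers (mainly HBA1 and HBA2) lay at 8.60 to 15.9 CPM in the YTHDF1- and YTHDF2-ADAR lines and at 18.4 to 32.6 CPM in the YTHDF3-ADAR line, and summed fibroblast markers (mainly COL1A1) at 5.11 to 10.2 and 17.2 to 35.8 CPM. Their part in the comparisons with the YTHDF3-ADAR line was not tested.

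No member was called between the lines in total RNA for YTHDF2- against YTHDF1-ADAR by edgeR (1 with an unadjusted p under 0.05, and 1 called by DESeq2), where 0.545% of genes were higher and 1.28% lower. The same was true of YTHDF3- against YTHDF2-ADAR (2 unadjusted, 1 called by DESeq2), where 15.2% of genes were higher and 7.57% lower. In that contrast TFRC was at -0.87 ± 0.36 (edgeR adjusted p = 0.0912), and DESeq2 called it at -0.91 (adjusted p = 0.0497). TFRC depended on 1 library: without total RNA replicate 1 of the YTHDF3-ADAR line, which had 178 CPM beside 65.4 and 88.6 CPM, it was lower than with YTHDF2-ADAR by a log2 change of -1.43 (edgeR adjusted p = 0.00615) and than with YTHDF1-ADAR by -1.22 (adjusted p = 0.0160, against -0.66 and 0.209 with all libraries). In polysome RNA, YTHDF3- against YTHDF2-ADAR had no call among the members by edgeR or DESeq2, where 13.6% of genes were higher and 11.5% lower, and TFRC at -0.78 ± 0.36 had the 1 unadjusted edgeR p under 0.05.

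Ferritin levels in total RNA did not pass between any 2 lines. FTH1 differed there by -0.15 ± 0.15 (YTHDF2- against YTHDF1-ADAR), 0.04 ± 0.15 (YTHDF3- against YTHDF1-ADAR) and 0.19 ± 0.15 (YTHDF3- against YTHDF2-ADAR) on the log2 scale. FTL differed by -0.29 ± 0.18, 0.10 ± 0.18 and 0.39 ± 0.18 in the same order, the last with a 95% interval of 0.01 to 0.77, an edgeR adjusted p of 0.121 and an unadjusted p under 0.05. In polysome RNA FTH1 was lower with YTHDF3-ADAR than with YTHDF1-ADAR, by -0.44 ± 0.15 (edgeR adjusted p = 0.0435), where 11.4% of genes were lower and the libraries overlapped. This call did not hold under 4 of 7 other settings, nor without YTHDF1-ADAR polysome replicate 1 (-0.43) or 2 (-0.29) or YTHDF3-ADAR polysome replicate 2 (-0.41) or 3 (-0.38). FTL gave -0.47 ± 0.18 in the same contrast (edgeR adjusted p = 0.0659), and passed without YTHDF1-ADAR polysome replicate 3 (-0.67, adjusted p = 0.0148) or YTHDF3-ADAR polysome replicate 1 (-0.60, adjusted p = 0.0230).

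Levels of different genes can be set side by side only per length of exon. For FTH1 that length includes the 63.2% shared with BEST1, so its order beside FTL is uncertain. In total RNA of the YTHDF1-ADAR line, mean CPM per kilobase was 202 ± 19.6 (SD, n = 3) for FTL, 165 ± 8.13 for FTH1, 22.5 ± 8.73 for TFRC, 11.9 ± 3.67 for IREB2, 3.94 ± 0.263 for ACO1 and 3.18 ± 0.341 for SLC11A2. The order was the same in total RNA of the other 2 lines, where FTL and FTH1 had 165 ± 16.2 and 149 ± 12.2 with YTHDF2-ADAR and 217 ± 29.0 and 170 ± 16.2 with YTHDF3-ADAR. With YTHDF2-ADAR these neighbours lay within their summed SDs, as did TFRC and IREB2 with YTHDF1-ADAR and with YTHDF3-ADAR (14.2 ± 7.64 and 10.0 ± 2.19). In polysome RNA FTL and FTH1 were within their SDs in each line, at 75.3 ± 19.8 and 70.2 ± 15.2 with YTHDF1-ADAR, 58.9 ± 10.2 and 61.9 ± 10.1 with YTHDF2-ADAR, and 54.2 ± 8.03 and 51.6 ± 6.22 with YTHDF3-ADAR. Also within them were TFRC and IREB2 with YTHDF1-ADAR (21.3 ± 9.83 and 17.0 ± 1.58) and with YTHDF3-ADAR (15.3 ± 2.96 and 16.0 ± 1.26), and SLC11A2 (3.70 ± 0.437) and ACO1 (3.38 ± 0.735) with YTHDF1-ADAR.

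Editing by the fusions was read from the authors' deposited tables, which give for each gene the number of edited sites and a summed score, with 1 value over the replicates and unknown depth. Score divided by sites is given as editing per site. In the YTHDF3-ADAR line both ferritin mRNAs were edited more in polysomes than in total RNA, and these were the only calls among the members. FTH1 had 10 sites in each authors' deposited table. Editing per site went from 1.75% in total to 2.66% in polysome RNA with YTHDF1-ADAR, from 1.40% to 3.09% with YTHDF2-ADAR and from 2.69% to 8.01% with YTHDF3-ADAR. FTL had 3, 5 and 3 sites and went from 1.15% to 2.77%, from 0.869% to 2.38% and from 1.68% to 6.53%. In both genes polysome RNA was the more edited fraction in each line, and most so with YTHDF3-ADAR.

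As natural log odds ratios in the authors' deposited tables, the FTH1 changes were 0.43, 0.81 and 1.15, with the authors' adjusted p of 1, 1 and 0.000549. The FTL changes were 0.90, 1.02 and 1.41, with the authors' adjusted p of 0.836, 1 and 0.00138. Higher editing in polysomes was called by the authors for 0.860%, 0.418% and 0.781% of 6858, 4547 and 7042 listed genes, and lower editing for 1.25%, 0.968% and 2.77%. The median listed gene changed the other way, by -0.15, -0.10 and -0.19. A larger change than that of FTH1 was listed for 12.3%, 10.8% and 2.36% of genes, and larger than that of FTL for 5.61%, 8.31% and 1.73%. FTH1 and FTL were among 297 of 3702 genes (8.02%) with a change above 0 in all 3 authors' deposited tables. ADARB1, which encodes the adenosine deaminase ADAR2, stood at 1456 ± 326 CPM (SD, n = 3) in total RNA of the YTHDF3-ADAR line, 247 ± 17.7 CPM with YTHDF1-ADAR and 38.9 ± 1.54 CPM with YTHDF2-ADAR. Its part in the difference of editing between lines was not tested.

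The overlap of FTH1 with BEST1 applies to editing as well. In the authors' deposited tables BEST1 had 9, 10 and 10 sites and changed from 1.88% to 2.88%, from 1.61% to 3.36% and from 2.85% to 8.14% per site, the last with the authors' adjusted p of 0.00501. The tables give no positions, so sites counted for both genes cannot be told apart from sites of either. FTL has no such partner.

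**Figure D4:**
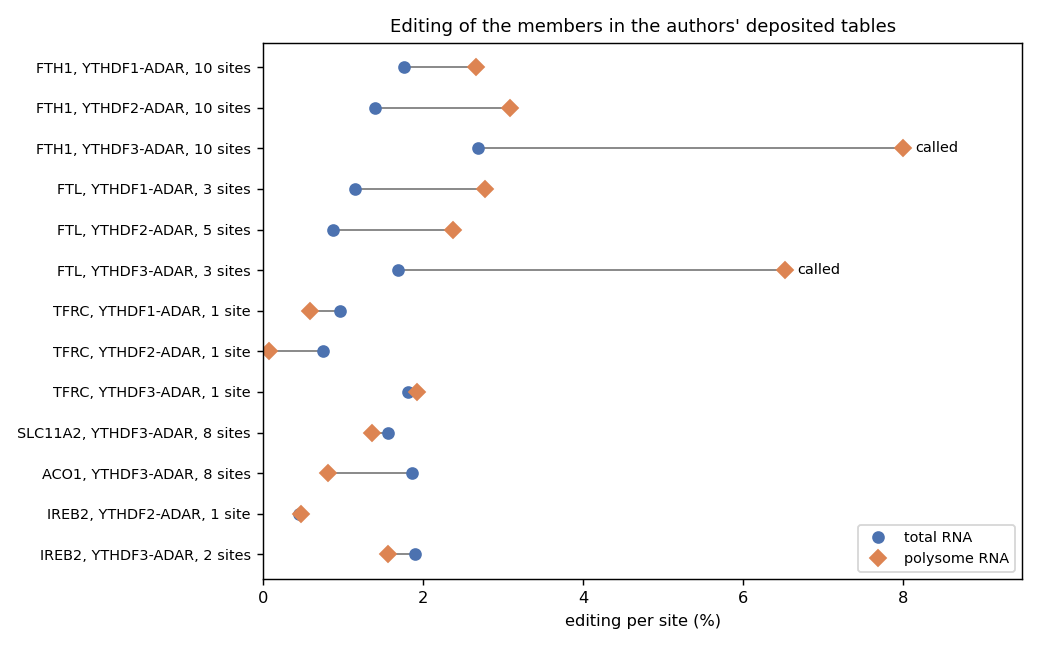
Editing per site in percent (x axis) in total RNA (circles) and polysome RNA (diamonds) for each gene and line with listed sites (y axis), from the authors' deposited tables, with 1 value over replicates and no error. FTH1 and FTL are higher in polysome RNA in each line, up to 8.01% and 6.53% with YTHDF3-ADAR.

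The other members were edited at few sites or in 1 line. TFRC had 1 site in each authors' deposited table, at 0.962% in total and 0.581% in polysome RNA with YTHDF1-ADAR, 0.748% and 0.0714% with YTHDF2-ADAR, and 1.81% and 1.93% with YTHDF3-ADAR. SLC11A2 and ACO1 were listed with YTHDF3-ADAR alone, each with 8 sites, at 1.56% and 1.35% for SLC11A2 and 1.86% and 0.806% for ACO1 (the authors' adjusted p = 1 and 0.801). IREB2 had 1 site with YTHDF2-ADAR (0.452% and 0.467%) and 2 with YTHDF3-ADAR (1.90% and 1.56%). The authors called none of these.

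Of 90 other iron genes in 7 lists, 85 were tested. In polysome against total RNA, 22, 19 and 15 of them rose and 4, 3 and 4 fell in the YTHDF1-, YTHDF2- and YTHDF3-ADAR lines, where 9.27%, 6.71% and 8.01% of all genes rose and 11.9%, 9.04% and 12.1% fell. Those shares cover noncoding genes too: being lower in all 3 lines held for 6.56% of genes tested and 3.65% of protein-coding genes. The share of protein-coding genes that rose is not given here. The median log2 change of the 85 iron genes was 0.24, 0.21 and 0.15, beside 0.13, 0.13 and 0.05 over all protein-coding genes tested. These counts moved with the processing. A fit of only the 2 groups compared gave 28, 29 and 0 higher and 4, 6 and 1 lower. Over all genes that fit called 2943, 3767 and 0 higher and 4327, 4089 and 219 lower. A fit of protein-coding genes alone gave 10, 7 and 6 higher and 4, 3 and 4 lower. It called 906, 505 and 1249 of all its genes higher and 1460, 1004 and 1531 lower. The number of genes fitted is not given for these 2 fits, so their counts give no share. The same is true below of the fit without the filter on low counts. Library totals without scaling factors gave 65, 62 and 48 higher and 1, 1 and 3 lower. Of 26804 genes these called 10895, 9096 and 6791 higher and 1527, 1364 and 1668 lower. The replicate block gave 40, 34 and 29 higher and 4, 4 and 6 lower. Of 26804 genes it called 5012, 4148 and 3640 higher and 4831, 4010 and 5390 lower.

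Genes of iron-sulfur cluster assembly, the process whose product turns ACO1 from a hairpin-binding protein into an enzyme, had 13, 11 and 6 of 29 tested genes higher and 1 lower in each line, beside 9.27%, 6.71% and 8.01% of all genes higher. The rises were 5, 2 and 2 with protein-coding genes alone, 16, 17 and 0 in a fit of only the 2 groups, 19, 17 and 11 with the replicate block and 24, 26 and 19 without scaling factors. The counts of all genes called higher in these settings are given above. Among them were NDUFAB1, the mitochondrial acyl carrier protein (0.48, 0.50 and 0.46 on the log2 scale in the 3 lines), and ISCA2, a late-acting carrier of the clusters (0.44, 0.45 and 0.34). NDOR1, which passes electrons to the cytosolic assembly pathway, fell (-0.43, -0.38 and -0.53). In heme synthesis, transport and breakdown 5, 4 and 4 of 17 rose, among them PGRMC1, a heme-binding membrane protein (0.51, 0.47 and 0.40), and BLVRA, a biliverdin reductase (0.33, 0.48 and 0.31). The shares of all genes are the same as for the list before. The heme rises were 1, 2 and 1 with protein-coding genes alone, and 1, 2 and 5 without the filter on low counts. Without that filter 1668, 997 and 2282 of all genes were higher. The heme rises were 7, 7 and 0 in a fit of only the 2 groups, 11, 9 and 8 with the replicate block and 15, 15 and 12 without scaling factors. All of these named changes passed in all 3 lines, with SE of 0.12 or less.

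Among genes that act on the hairpin-binding proteins, HERC2, a ubiquitin ligase, fell, at -1.30, -1.11 and -1.08 (SE 0.10 in each line). SKP1, a subunit of the ligase that removes IREB2, rose by 0.42, 0.40 and 0.40, and FBXL5, the iron-sensing subunit of that ligase, was at 0.17, 0.12 and 0.05 and did not pass. With 6 genes tested, 1 rose and 1 fell in each line. Beside this list and the next ones, 9.27%, 6.71% and 8.01% of all genes rose and 11.9%, 9.04% and 12.1% fell. A call of 1 gene thus says little about a list this short. Of 13 uptake and export genes tested, 1 rose in each line, the metal importer SLC39A8 (0.52, 0.46 and 0.53), and 1, 0 and 1 fell, each time TFR2, the second transferrin receptor, at a mean of only 0.236 CPM (-1.37 with YTHDF1-ADAR and -1.64 with YTHDF3-ADAR). Of 7 genes for mitochondrial iron and cluster export, ABCB10, a mitochondrial transporter, rose (0.33, 0.36 and 0.24) and SLC25A37, the mitochondrial iron importer mitoferrin 1, fell (-0.47, -0.53 and -0.76). Among 6 tested genes of ferritin loading and ferritinophagy, the autophagy receptor TAX1BP1 rose with YTHDF3-ADAR (0.95 ± 0.23, edgeR adjusted p = 0.00886), and the iron chaperone PCBP1 (0.18, 0.17 and 0.08) and the ferritin receptor NCOA4 (0.20, 0.19 and 0.04) did not pass.

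Of 7 other tested mRNAs reported to carry an IRE, edgeR called 1 in each line, PFN2, an actin-binding protein, which rose (0.44, 0.40 and 0.28). Over all genes tested 9.27%, 6.71% and 8.01% were higher and 11.9%, 9.04% and 12.1% lower. EPAS1, the hypoxia factor HIF-2 alpha, whose mRNA has a 5′ hairpin, gave -0.12, -0.16 and -0.09 (SE 0.18). SLC40A1, the iron exporter ferroportin, gave -0.16, -0.27 and -0.06 at a mean of 1.67 CPM (SE 0.20 to 0.21). Of the 7, which include ALAS2, 0 were called lower in each line. The list median was -0.02, 0.09 and -0.06. A difference between these mRNAs and ferritin was not tested.

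Between lines, 10 of the 85 iron genes were higher and 9 lower in total RNA with YTHDF3-ADAR than with YTHDF1-ADAR, where 11.6% and 6.52% of all genes were so, and 11 higher and 10 lower than with YTHDF2-ADAR, beside 15.2% and 7.57% of genes. In polysome RNA the counts were 9 and 17 (11.9% and 11.4% of all genes), then 10 and 16 (13.6% and 11.5%). The balance depended on the scaling: without scaling factors the counts were 30 and 3, then 24 and 0 in total RNA, and 13 and 8, then 14 and 5 in polysome RNA. Over all genes they were then 6776 and 536, 6589 and 558, 4068 and 1571, and 4740 and 1333 in the same order. Fits of only the groups compared gave 0 and 2, then 1 and 1 in total RNA, and 3 and 3, then 6 and 2 in polysome RNA. Over all genes such fits gave 210 and 137, 1163 and 333, 1360 and 843, and 1960 and 721, again without the number of genes fitted. The same YTHDF3-ADAR libraries enter both. The heme-breakdown enzyme BLVRB was higher in all 4 of these contrasts (1.12 ± 0.28, 1.33 ± 0.28, 1.05 ± 0.27 and 1.29 ± 0.27), and the RNA-binding iron chaperone family member PCBP4 was 1.28 ± 0.31 and 1.54 ± 0.31 higher in total RNA. PPOX, an enzyme of heme synthesis, was higher by 0.76 ± 0.23 in total RNA against YTHDF1-ADAR, and CYBRD1, a ferric reductase, by 1.09 ± 0.23 in total RNA against YTHDF2-ADAR. SLC25A37 was lower by a log2 change of -1.01 ± 0.12 in polysome RNA against YTHDF1-ADAR (edgeR adjusted p = 7.13e-05), and SLC11A1, a metal transporter of phagocytes, was higher there by 1.14 ± 0.33 at a mean of only 0.256 CPM. YTHDF2- against YTHDF1-ADAR had no call among the iron genes by edgeR in total or polysome RNA, where 4 and 8 genes reached an unadjusted p below 0.05 and DESeq2 called 0 and 1.

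Few of the other iron genes had an editing call. Of the 90 genes, 43, 38 and 47 were in the authors' deposited tables for YTHDF1-, YTHDF2- and YTHDF3-ADAR, and 10, 8 and 8 of them had a change above 0, with a median natural log odds ratio of -0.40, -0.23 and -0.25. Over all listed genes 36.8%, 41.7% and 33.4% were above 0 and the medians were -0.15, -0.10 and -0.19. The authors called none higher and 2 lower, both with YTHDF3-ADAR, where 2.77% of listed genes were called lower: HMOX2, a heme oxygenase (natural log odds ratio -0.26, the authors' adjusted p = 0.0489), and NCOA4 (-0.57, the authors' adjusted p = 0.0293).

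Across the 18 libraries, FTL was the expressed protein-coding gene whose log2 CPM was most like that of FTH1 (Pearson r = 0.995), followed by BEST1 (0.994) and CLASRP (0.958), out of 11798 genes compared. For FTL the nearest were BEST1 (0.996), FTH1 (0.995) and CLASRP (0.956). TFRC was most like HSPA4 (0.942), RBM26 (0.928) and DHX15 (0.920), and SLC11A2 most like SQLE (0.931), INSIG1 (0.924) and SDC4 (0.920). ACO1 was nearest to RALGAPA2 (0.898), MCM3 (0.896) and TMEM131L (0.886), and IREB2 to DEPDC1 (0.985), MMS22L (0.984) and MOB1B (0.982). These values describe likeness over libraries that fall into 2 fractions and 3 lines. The likeness of BEST1 carries the limit that its reads and those of FTH1 cannot be told apart.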

How the data were processed

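Per the submitters' processing notes, STAR 2.7.7, featureCounts 2.0.1 and DESeq2 were used with GRCh38 (hg38), while for the strand setting and annotation release nothing is given in the sources used here. The authors deposited raw counts per gene and library. The editing tables deposited by the authors hold a score per gene and fraction, a p-value adjusted by the authors, and a column headed as log2 that equals ln of the odds ratio (natural log) between fractions of score over sites (largest difference 5.62e-08). Tables listed 480 rows without a score in 1 fraction, which were left out of medians and shares. Their depth is unknown. A further table of the authors, with log2 fold changes, signal (mean of normalised counts) and p-values of a comparison it does not name, was used for gene symbols and types (symbols for 40818 of 60675 rows). For FTH1, FTL, TFRC, SLC11A2, ACO1 and IREB2 it gave -1.24, -1.43, -0.08, 0.21, -0.23 and 0.52. These lie close to the polysome changes with YTHDF1-ADAR found here, -1.24, -1.42, -0.08, 0.22, -0.22 and 0.52. The count table has 1 row that names no human gene (at most 1.48e-05% of a library's counts), left out of the fit.

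Counts were fitted in R 4.3.3 with edgeR 4.0.16 (TMM factors, filterByExpr with minimum count 10, 1 robust quasi-likelihood fit of 6 group means). The call was Benjamini-Hochberg adjusted p under 0.05 over 26804 genes. CPM uses TMM library sizes, and SE is the log2 change divided by the root of F. Replicate p-values measure the spread between these libraries, which may be technical. No 2 libraries of a group agreed within sampling noise (lowest chi-square per degree of freedom 6.98).

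Same-numbered total and polysome libraries of a line deviated together from their group means in all 9 pairs (r 0.214 to 0.749), and 7 of 9 matched their own number best. The pairing within a line therefore comes from the data and not from the labels. Across lines, same-numbered libraries did not deviate together throughout (r -0.577 to 0.878). In total RNA of the YTHDF1- and YTHDF2-ADAR lines r was 0.878, 0.0527 and 0.449 for replicates 1, 2 and 3.

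The 6 members and all gene lists were chosen with earlier results of these data known. Named genes are the 6 members, the 3 largest changes per iron list called alike in each of the 3 lines, the 3 largest per contrast between lines, iron genes with the authors' editing call in 2 or more constructs (none), the 3 genes most like each member, and the fusion genes. A gene that this rule names is not reported here. BEST1, TFR2, TAX1BP1, FBXL5, PCBP1, NCOA4, HMOX2, EPAS1, SLC40A1, HBA1, HBA2 and COL1A1 are outside that rule and were named after their values were seen. ALAS2, shown for its hairpin, is outside that rule too. Alternatives were DESeq2 1.42.0 size factors and its test, no scaling factors, protein-coding genes alone, no filter on low counts, only the groups compared, the replicate block, each library left out, and, added after seeing the data, counts of ferritin pseudogenes or BEST1 added to the ferritin genes.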

Additional observations from a re-analysis of the deposited data

Results flagged for a closer look

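ACO1 moved in opposite directions in the YTHDF1- and YTHDF2-ADAR lines in every same-numbered library pair, and the mean log2 change of polysome against total RNA differed by 0.297 between them. With YTHDF2-ADAR the 3 pairs were at 0.15, 0.01 and 0.00, and with YTHDF1-ADAR they were at -0.22, -0.51 and just under 0. The edgeR test of the difference itself gave 0.28 ± 0.20 (n = 3 libraries a group, unadjusted p = 0.186, adjusted p = 1.00), so the difference did not pass.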

How the results depend on the processing

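The fall of FTH1 and FTL in polysomes kept its direction and its call in all 3 lines under each alternative, also without each library. The log2 change of FTH1 ran from -1.34 to -0.80, -1.38 to -0.90 and -1.77 to -1.42 in the YTHDF1-, YTHDF2- and YTHDF3-ADAR lines over the settings that keep all libraries of a group, and that of FTL from -1.52 to -0.98, -1.60 to -1.12 and -2.05 to -1.70, with a highest adjusted p of 0.00868. No call turned into a call in the opposite direction. Uncalled changes did cross 0 over these settings. In polysome against total RNA, TFRC with YTHDF1-ADAR ran from -0.18 to 0.31. In total RNA, FTH1 with YTHDF3- against YTHDF1-ADAR ran from -0.01 to 0.27. Without scaling factors the median log2 change over all genes went from 0.03, 0.03 and -0.05 to 0.46, 0.40 and 0.25, the calls from 2484 higher and 3193 lower to 10895 and 1527 with YTHDF1-ADAR, from 1799 and 2424 to 9096 and 1364 with YTHDF2-ADAR and from 2147 and 3245 to 6791 and 1668 with YTHDF3-ADAR, and the members called higher from 0 to 2, from 0 to 3 and from 1 to 2. There the uncalled change of ACO1 with YTHDF1-ADAR turned from -0.22 to 0.21, and with YTHDF3-ADAR from -0.11 to 0.20.

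The replicate block gave 1 member higher in polysomes with YTHDF1-ADAR (main value 0), raised the calls over all genes from 5677, 4223 and 5392 to 9843, 8158 and 9030 and changed no other call in polysome against total RNA. The adjusted p of the FTH1 difference between the YTHDF3- and YTHDF1-ADAR lines was 0.636 with it. As a block across lines, where the numbers do not pair libraries throughout, it gave 2 members lower in polysome RNA for YTHDF3- against YTHDF1-ADAR.

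The fit of only the groups compared gave 0 members higher in polysomes with YTHDF3-ADAR (main 1), 0 higher for YTHDF3- against YTHDF1-ADAR in total and in polysome RNA (main 1 each), 0 lower in that polysome contrast (main 1), 1 lower for YTHDF3- against YTHDF2-ADAR in polysome RNA (main 0) and 1 higher for YTHDF2- against YTHDF1-ADAR in total RNA (main 0). With YTHDF3-ADAR that fit called 0 of all genes higher in polysomes and 219 lower. Protein-coding genes alone gave 0 members higher in polysomes with YTHDF3-ADAR, where 1249 of all genes fitted were higher. The 1 member lower in polysome RNA for YTHDF3- against YTHDF1-ADAR became 0 with DESeq2 size factors, without the filter and without scaling factors. The DESeq2 test gave 1 higher for YTHDF2- against YTHDF1-ADAR and 1 lower for YTHDF3- against YTHDF2-ADAR in total RNA (main 0 each), and no scaling factors gave 1 higher in the last (main 0). The cause of these moves was not tested.

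Leaving out 1 library at a time gave 0 to 1 members higher in polysomes with YTHDF1-ADAR and 0 to 1 with YTHDF3-ADAR, 0 to 2 lower for YTHDF3- against YTHDF1-ADAR in polysome RNA, and in total RNA 0 to 1 higher and 0 to 1 lower in that contrast and 0 to 1 lower for YTHDF3- against YTHDF2-ADAR. For the 72 results on single members, a recomputation under an alternative gained a call 18 times, lost one 20 times and stayed on the same side of the threshold, mostly uncalled, 1042 times. Of the recomputed counts and shares 35 moved and 337 did not. The members stood at 19.4 CPM or more in each library.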
